A study of Mus musculus with 9 samples.

Results

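Semaphorins and their receptors, the plexins, were followed across RNA bound to tagged ribosomes and total RNA of mouse cerebral cortex, with the tag aimed at endothelium. The members were picked out by a rule on symbols, set with earlier results of these data known: every gene row named Sema3 to Sema7 with a letter from a to g, or Plxna, Plxnb, Plxnc or Plxnd. This gave 30 of 32531 gene rows, of which 20 are semaphorins, 9 are plexins and 1 is Plxna4os1, a noncoding RNA annotated antisense to Plxna4. The tissue was cerebral cortex of adult control mice of 1 transgenic line, Abcb1a-EGFP/Rpl10a (ES3026), where Abcb1a regulatory sequence drives a fluorescently tagged ribosomal protein. Abcb1a itself encodes the efflux transporter P-glycoprotein of the blood-brain barrier. Antibodies against the tag pull down the ribosomes of cells that carry it, with their mRNA. There were 3 immunopurified (IP) libraries extracted by investigator ES, 3 IP libraries extracted by investigator JL and 3 input libraries of total RNA extracted by JL; no other difference was given for the investigators, and there was no ES input. The inputs came from the same line, so no group lacked the transgene.

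Semaphorins are guidance proteins that share a large extracellular sema domain. Those of class 3 are secreted, those of classes 4 to 6 span the membrane, and Sema7a is held at the surface by a lipid anchor. Plexins bind them, directly or with neuropilins as co-receptors for most of class 3, and act on small GTPases to loosen adhesion and reshape actin. The system was first known from repelled axons, and in vessels it limits or steers sprouting.

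Levels are given in CPM, gene counts divided by the scaled library size, as mean ± SD of 3 libraries unless single values are listed. Each log2 fold change carries its standard error. The adjusted p (edgeR, quasi-likelihood, Benjamini-Hochberg over all genes) had to be under 0.05 for a call. Libraries held 31987470 to 46598478 gene counts, so that 1 count was worth 0.0196 to 0.0342 CPM. These counts include the ribosomal RNA row Rn45s, which averaged 185098 CPM in JL IPs, 86958 in ES IPs and 46805 in inputs. Its part in the scaling was not tested. Whether the replicates are different animals is not stated in the labels, so a p-value here reflects library-to-library spread, which may be technical. Per the file names, the ES libraries carried 1 sequencing lane number and the JL libraries 3 others, which IP and input of the same replicate number shared. Lane and investigator cannot be told apart between ES and JL. The Y-linked gene Ddx3y held 2298 and 3249 counts in JL IP replicate 1 and input replicate 1, 0 or 1 in the other JL libraries and 660 to 1037 in the ES IPs. JL replicate 1 thus held male tissue and the other JL replicates almost none, so replicate 1 came from other animals than they did. Whether the other JL replicates, or the ES replicates, are different animals stays unknown. All ES IPs held Ddx3y, so sex make-up also differed between ES and JL. Its part in any member, the X-linked Plxna3 and Plxnb3 included, was not tested.

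Abcb1a and endothelial markers were higher in both IP groups than in the inputs, to different degrees. Abcb1a averaged 2.16 ± 0.484 CPM for inputs, 44.9 ± 9.21 for ES IPs and 466 ± 21.5 for JL IPs. The summed level of 10 endothelial markers ran, for inputs, ES IPs and JL IPs in turn, from 18.1 to 21.6, 456 to 770 and 4310 to 4699 CPM, and that of 10 neuron markers from 14396 to 15298, 14774 to 16085 and 1854 to 2416. Sums for 10 astrocyte markers were 2275 to 2447, 1372 to 1887 and 360 to 517, and for 8 fibroblast markers 55.5 to 59.8, 37.5 to 58.8 and 115 to 188. Of the 10 neuron markers in the ES IPs against the inputs, 3 were higher (Nefm, Tubb3 and Rbfox3), 2 lower (Syt1 and Gad2) and 5 not called, and Snap25 alone made up 11454 and 10501 CPM of the group means. The neuron sums of the ES IPs and the inputs overlapped, so ES IP values cannot be read as those of endothelium alone. Tissue RNA cannot tell fewer cells of a type from less RNA per cell.

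The first comparison, JL IP against JL input, asked which semaphorins and plexins were enriched or depleted in the pulled-down RNA relative to total RNA. All 30 members passed the filter on low counts. Of these, 9 (30%) rose in JL IPs, 18 (60%) fell and 3 did not pass the test. Among 17357 genes tested, 36.7% were higher and 37.4% lower, 74.1% in all. The members' median log2 fold change was -0.93, and that of all genes tested was -0.09. The higher members were Sema7a, Sema3c, Sema3g, Sema3d, Sema3b, Sema6a, Sema4c, Plxnd1 and the antisense row Plxna4os1. All libraries of one group lay beyond all of the other for 29 of 30 members, and 38.7% and 42.2% of all genes had their JL IPs wholly above or below the inputs.

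**Figure D1:**
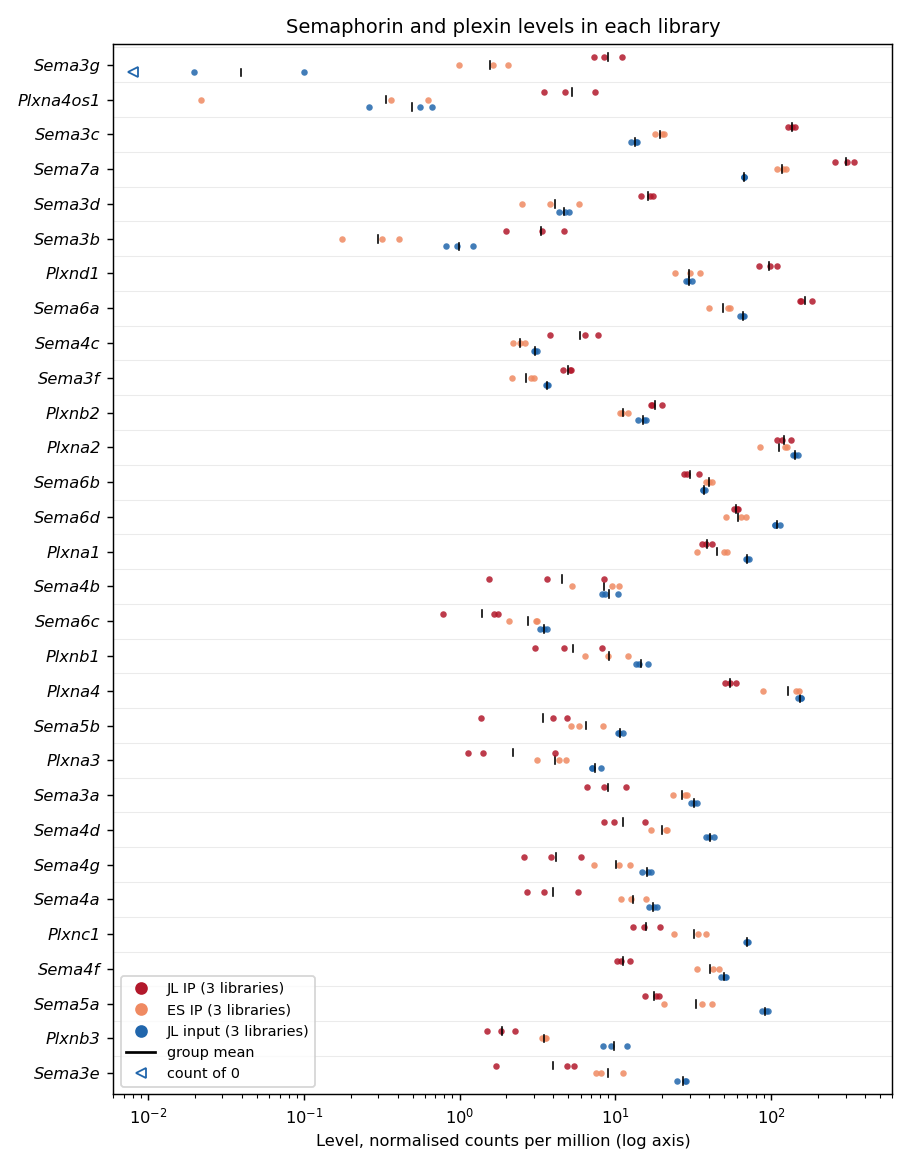
Level of each member (CPM, log axis) in the 9 libraries, with members ordered from the lowest (bottom) to the highest (top) fold change of JL IP over input; dots are libraries, black ticks are group means and the open triangle is a count of 0. Sema3g sits at 7.33 to 11.1 CPM in the JL IPs and at most 0.0998 in the inputs, and JL IP and input dots overlap only for Sema4b.

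Of the 7 secreted ligands of class 3, 4 rose, 2 fell and 1 was not called, beside 36.7% of all genes higher and 37.4% lower. Sema3c, which signals through neuropilins with plexins including Plxnd1, stood at 142, 136 and 129 CPM in the JL IPs and at 13.8, 13.7 and 12.5 in the inputs. The groups were far apart and tight within themselves, and the log2 fold change was 3.35 ± 0.09 (adjusted p = 6.90e-09). Sema3g, a neuropilin-2 ligand known from mouse arterial endothelium, had 214, 382 and 252 counts in the JL IPs and 1, 5 and 0 in the inputs. It was thus nearly undetected in total cortex RNA, and the pooled ratio of 223 has an exact 95% interval of 102 to 609 that covers counting error only. The fitted log2 fold change was 7.68 ± 0.61 (adjusted p = 5.06e-06) and 9.37 without input replicate 2, which held 5 of the 6 input counts.

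Sema3d, which patterns pulmonary veins in the mouse, stood at 14.7, 16.6 and 17.4 CPM in the JL IPs against 4.32, 5.01 and 4.78 in the inputs (log2 fold change 1.79 ± 0.16, adjusted p = 9.86e-06). Sema3b, another neuropilin ligand, was scarce, at 4.66, 1.97 and 3.37 CPM against 1.22, 0.818 and 0.957, with a log2 fold change of 1.74 ± 0.42 (adjusted p = 0.00488). Both were higher in every JL IP than in any input. Of 8 fibroblast markers 5 rose and 3 fell (Lum, Pdgfra and Slc6a13), and none was at 0 in all inputs. The part of fibroblast RNA in the result of Sema3d, Sema3b or any other member was not tested. Sema3f, a neuropilin-2 ligand, averaged 4.97 ± 0.307 against 3.64 ± 0.0520 CPM and was not called (log2 fold change 0.45 ± 0.22, adjusted p = 0.0879).

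The other class 3 ligands were lower. Sema3e, which binds Plxnd1 without a neuropilin, stood at 1.71, 4.87 and 5.40 CPM in the JL IPs and 28.5, 25.0 and 27.9 in the inputs, the lowest fold change of the 30 members (-2.76 ± 0.35, adjusted p = 0.000107). Sema3a, the axon repellent that acts through neuropilin-1, stood at 6.54, 8.41 and 11.8 against 32.2, 33.2 and 30.7 CPM (-1.85 ± 0.20, adjusted p = 3.83e-05). No JL IP value of either gene came near an input value. These ligands and Sema3d and Sema3c lie in one stretch of chromosome 5 (mm10, 12383385 to 17730268), in the order Sema3d, Sema3a, Sema3e and Sema3c, with gaps of 0.536, 0.423 and 3.32 Mb and 17 other protein-coding genes in the stretch. The outer genes of this run rose and the inner pair fell.

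Sema7a was the most abundant semaphorin per kilobase of exon in every group. It binds Plxnc1 and integrins with the beta-1 chain. Its levels were 306, 257 and 337 CPM in the JL IPs and 66.9, 66.6 and 66.8 in the inputs (log2 fold change 2.17 ± 0.10, adjusted p = 1.98e-07). The inputs were almost identical, and the lowest JL IP was well above them.

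Among the membrane-spanning ligands, 2 of 12 rose, beside 36.7% of all genes. Sema6a, a ligand of Plxna2 and Plxna4, stood at 156, 184 and 154 CPM in the JL IPs and 63.5, 66.2 and 66.6 in the inputs (log2 fold change 1.33 ± 0.09, adjusted p = 1.48e-06). Sema4c, a ligand of Plxnb2, was scarcer, at 6.37, 3.83 and 7.69 against a mean of 3.06 ± 0.0660 CPM in the inputs (0.96 ± 0.29, adjusted p = 0.0159). Its call ended when any 1 input was left out (adjusted p from 0.0519 to 0.0577) and with library size alone (adjusted p = 0.0585). An opposite-strand transcript overlaps 7.27% of its exon bases.

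Of the other membrane-spanning ligands 9 were lower, beside 37.4% of all genes. Sema5a, a ligand of Plxnb3 with thrombospondin repeats, stood at 18.4, 15.5 and 19.0 CPM in the JL IPs against 92.0, 87.4 and 95.6 (-2.38 ± 0.10, adjusted p = 1.12e-07), and Sema4f at 10.2, 10.8 and 12.4 against 50.5, 47.9 and 51.3 (-2.16 ± 0.11). Sema4d, the ligand of Plxnb1, fell by 1.85 ± 0.21 on the log2 scale, Sema4a by 2.14 ± 0.27 and Sema4g by 1.95 ± 0.29. Sema5b fell by 1.64 ± 0.39, Sema6c by 1.30 ± 0.37 and Sema6d, which also signals in the heart with Plxna1, by 0.86 ± 0.07. Sema6b, a ligand of Plxna4, changed least, from 36.8 ± 0.628 to 30.2 ± 3.50 CPM (-0.28 ± 0.11, adjusted p = 0.0383), and its call ended in 8 of 12 alternatives, including the omission of JL IP replicate 1 or 2 or of any input (adjusted p from 0.0886 to 0.122). Sema4b did not pass: its JL IPs stood at 3.63, 1.54 and 8.50 CPM, and without JL IP replicate 3 it was lower by -1.81 ± 0.36 (adjusted p = 0.00247). With the replicate number as a block it was called lower too (-1.27, adjusted p = 0.0156).

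Among the receptors, Plxnd1 rose and 7 of the other 8 plexins fell, where 36.7% of all genes were higher and 37.4% lower. Plxnd1, known for guiding vessels, stood at 109, 97.7 and 83.1 CPM in the JL IPs and 28.5, 29.2 and 31.2 in the inputs (log2 fold change 1.71 ± 0.11, adjusted p = 1.65e-06). Plxnc1, the receptor of Sema7a, stood at 13.0, 15.3 and 19.2 against 70.9, 69.6 and 69.2 CPM (-2.14 ± 0.14, adjusted p = 1.33e-06). The ligand Sema7a and its receptor Plxnc1 thus went opposite ways, as did Plxnd1 and its ligand Sema3e. Some other pairs rose together: Sema3c with Plxnd1, and Sema7a with Itgb1, the beta-1 integrin chain (2.64 ± 0.09). Others fell together: Sema5a with Plxnb3, Sema4d with Plxnb1, Sema6d with Plxna1 and Sema6b with Plxna4. Sema6a rose while its receptors Plxna2 and Plxna4 fell. Ligands and receptors were not tested as pairs.

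Class A plexins, the signalling partners of neuropilins, were all lower, by unequal amounts, beside 37.4% of all genes. Plxna4 stood at 54.1, 50.3 and 59.7 CPM against 156, 148 and 155 (-1.49 ± 0.08), and Plxna1 at 38.6 ± 3.06 against 70.4 ± 1.33 (-0.87 ± 0.08). Plxna2 was near parity, at 117, 110 and 134 against 143, 137 and 149 CPM (-0.25 ± 0.09, adjusted p = 0.0275); its call ended without JL IP replicate 1 or 2 or input replicate 1 or 3 (adjusted p from 0.0682 to 0.0974) and with all 9 libraries in 1 fit (0.163). Of the X-linked pair, Plxna3 stood at 1.40, 1.13 and 4.11 CPM against 7.12, 7.10 and 8.13 (-1.75 ± 0.46, adjusted p = 0.00738, and -2.55 without JL IP replicate 3), and Plxnb3 at 1.87 ± 0.376 against 9.84 ± 1.76 (-2.39 ± 0.25). Plxnb1 fell by 1.47 ± 0.32 on the log2 scale. Plxnb2, receptor of Sema4c and Sema4g, was not called, with 17.2, 16.9 and 20.0 against 15.4, 14.1 and 15.6 CPM (0.26 ± 0.13, adjusted p = 0.0907).

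JL IP replicate 3 held the highest level of the JL IPs for 14 of the 18 members that were lower. Its neuron marker sum was 2416 CPM, against 1854 and 1907 in the other JL IPs, and the part of this in the spread of those members was not tested.

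**Figure D2:**
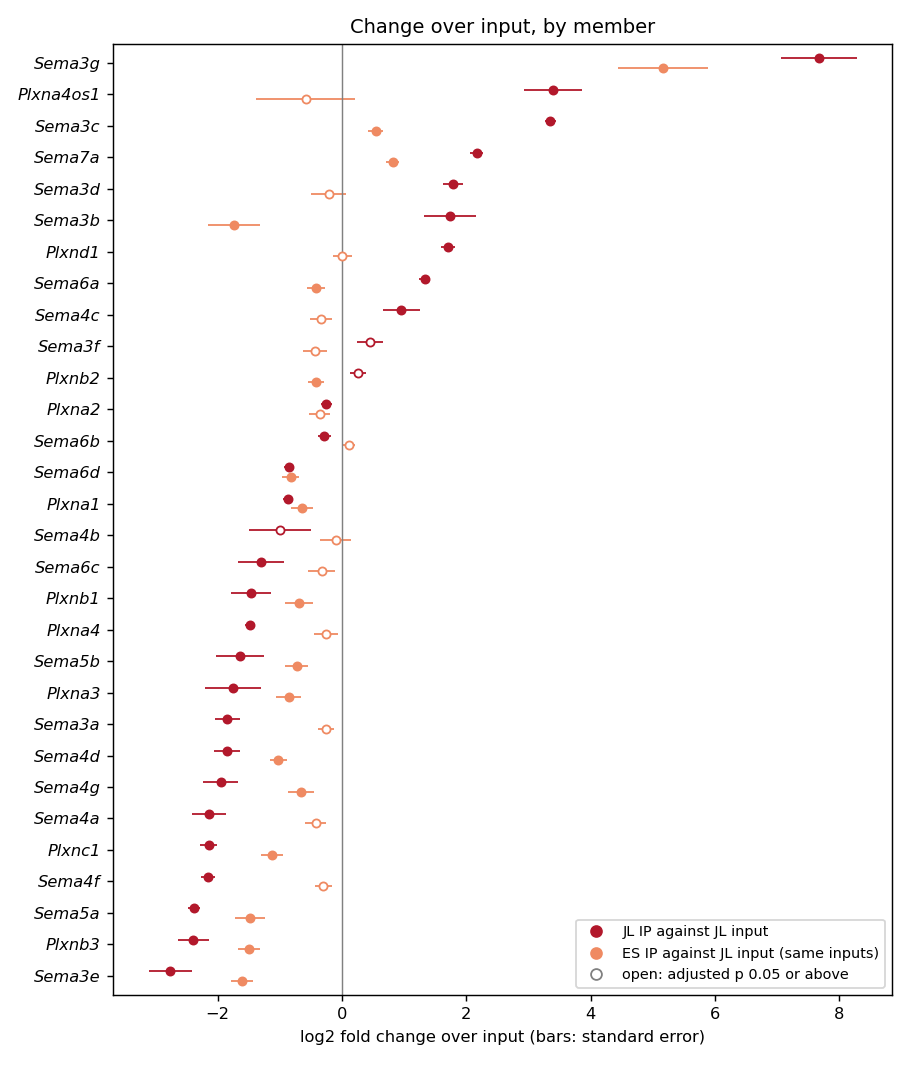
Log2 fold change over the JL inputs, with its standard error, of each member in the JL IPs (dark red) and the ES IPs (orange), which share the same 3 inputs; open symbols did not pass. Of the 9 members higher in the JL IPs only Sema3g, Sema3c and Sema7a are also higher in the ES IPs, at 5.17, 0.54 and 0.82.

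Per kilobase of exon, the make-up of the family differed between fractions. Sema7a made up 57.8 ± 3.44% of the summed per-kilobase semaphorin level in the JL IPs, 43.0 ± 3.56% in ES IPs and 23.9 ± 0.402% in inputs. Sema3c made up 12.2 ± 1.34%, 3.27 ± 0.278% and 2.20 ± 0.152%, in the same order. Sema6a made up 11.3, 14.5 and 10.3% in the single JL IPs, 6.70 ± 0.918% in the ES IPs and 8.79 ± 0.165% in the inputs. In the inputs Sema6d (12.1 ± 0.327%), Sema4f (11.1 ± 0.325%) and Sema6b (10.9 ± 0.308%) followed Sema7a. Within class 3, Sema3c held 74.2 ± 2.49% in the JL IPs, whereas in the inputs Sema3e held 34.1 ± 2.10%, Sema3a 27.0 ± 1.06% and Sema3c 21.8 ± 0.879%. Plxnd1 made up 39.3 ± 5.73% of the plexin level in the JL IPs, 8.95 ± 0.347% in inputs and 12.9 ± 1.11% in the ES IPs; in the inputs Plxna4 led with 24.0 ± 0.276%. Shares within a library sum to a whole, so a rise of Sema7a or Plxnd1 lowers the shares of the rest.

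**Figure D3:**
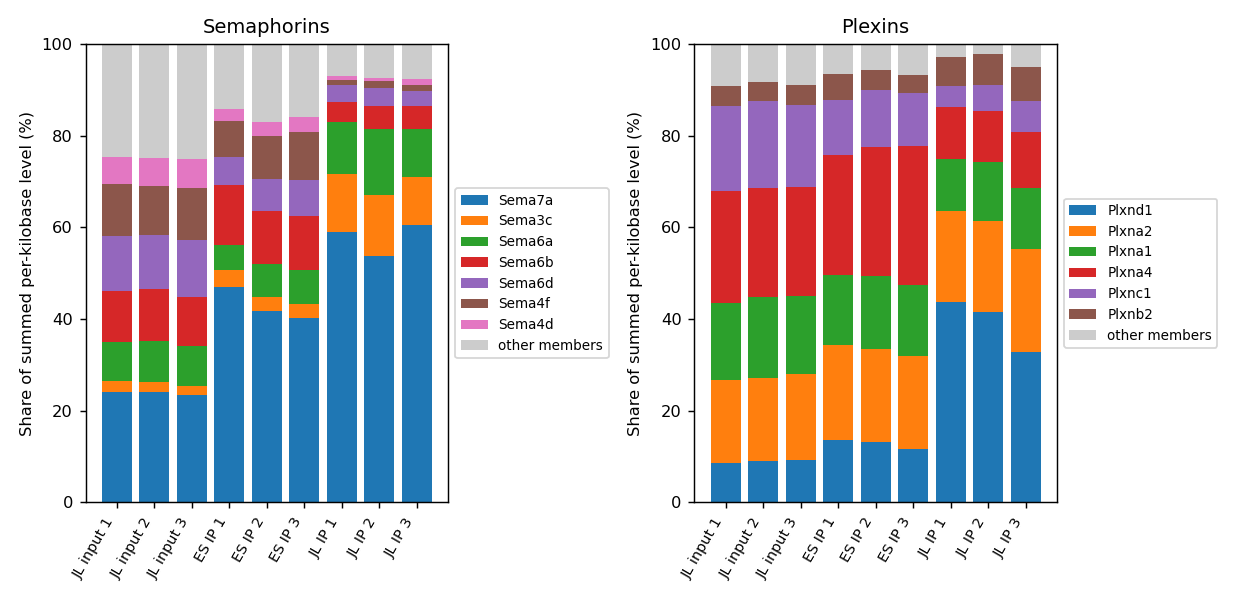
Share (%) of each named member in the summed per-kilobase level of the 20 semaphorins (left) and the 9 plexins (right), in each library. Sema7a is the largest block among semaphorins in every library, and Plxnd1 averages 39.3% of the plexin level in JL IPs and 8.95% in inputs.

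Summed over the 7 class 3 genes, the per-kilobase level (CPM per kilobase) was 25.6 ± 0.582 in the JL IPs, 7.01 ± 0.449 in ES IPs and 8.56 ± 0.194 in inputs. For class 4 the sums were, in the same order, 6.89 ± 1.64, 15.9 ± 2.61 and 22.0 ± 0.938. The 4 class A plexins summed to 15.4 ± 1.55, 21.1 ± 4.94 and 27.9 ± 0.769. These sums are descriptions and were not tested.

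The stretches just upstream of the RefSeq start sites (GRCm38.p6, the assembly behind mm10) are shown for 4 members that rose and for Sema3e, which fell, since Sema3d and Sema3e lie in the same stretch of chromosome 5, on the same strand, and went opposite ways. RefSeq windows matched 24 of the 30 members. Capitals mark matches, on either strand, to the core of ETS factors (AGGAAG), of SOX factors (ACAAT) and of TCF/LEF factors (CTTTGA), to the GC box (GGGCGG) or to the TATA box (TATAAA). The last 13 bases of the Sema3g window are exonic in GENCODE M21 and were left off.
Sema3g, chr14:31217623-31217859, plus strand: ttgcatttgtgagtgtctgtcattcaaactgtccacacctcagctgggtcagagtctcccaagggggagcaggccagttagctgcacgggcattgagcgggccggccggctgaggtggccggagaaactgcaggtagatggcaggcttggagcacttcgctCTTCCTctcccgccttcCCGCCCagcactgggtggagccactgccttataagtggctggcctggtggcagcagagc
Sema7a, chr9:57939862-57940111, plus strand: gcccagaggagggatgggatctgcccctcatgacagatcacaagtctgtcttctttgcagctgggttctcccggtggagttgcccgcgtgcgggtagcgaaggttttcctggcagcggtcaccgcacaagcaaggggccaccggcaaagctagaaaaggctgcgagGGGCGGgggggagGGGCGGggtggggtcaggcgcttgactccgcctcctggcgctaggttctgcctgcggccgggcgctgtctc
Plxnd1, chr6:115995006-115995255, minus strand: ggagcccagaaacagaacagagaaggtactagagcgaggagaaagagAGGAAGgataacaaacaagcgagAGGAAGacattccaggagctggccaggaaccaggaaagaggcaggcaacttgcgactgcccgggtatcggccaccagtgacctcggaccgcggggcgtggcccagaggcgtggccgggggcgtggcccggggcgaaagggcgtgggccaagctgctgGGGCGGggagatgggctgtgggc
Sema3d, chr5:12382916-12383165, plus strand: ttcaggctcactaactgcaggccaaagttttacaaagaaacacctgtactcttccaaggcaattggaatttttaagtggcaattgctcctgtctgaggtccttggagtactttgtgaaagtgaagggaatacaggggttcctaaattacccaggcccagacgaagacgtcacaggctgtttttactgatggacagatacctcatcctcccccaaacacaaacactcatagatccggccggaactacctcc
Sema3e, chr5:14025026-14025275, plus strand: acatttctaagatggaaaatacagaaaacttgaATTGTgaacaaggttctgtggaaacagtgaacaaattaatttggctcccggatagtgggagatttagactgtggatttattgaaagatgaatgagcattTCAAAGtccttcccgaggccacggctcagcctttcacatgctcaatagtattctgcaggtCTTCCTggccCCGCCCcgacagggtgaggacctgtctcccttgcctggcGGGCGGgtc

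These windows had no set of matches in common. The ETS core occurred 2 times in the Plxnd1 window and 1 time each in those of Sema3g and Sema3e, and 29.5% of all 32851 promoter windows of 250 bases held it. The GC box was in 4 of the 5 windows shown and in 32.7% of all windows. Sema3e alone of the 5 held the SOX and TCF/LEF cores, found in 27.7% and 13.8% of all windows. No match to any of the 5 motifs lay in the Sema3d window, and TATAAA was in none of the 35 member windows, against 12.4% of all. Of these 35 windows, which cover 24 members, 25 held the GC box, 14 the ETS core, 9 the SOX core and 1 the TCF/LEF core. Their GC content ran from 40.8 to 78.4%, mostly above the median of 52.4% over all windows. Its part in these counts was not tested. Some members gave more than 1 window. A match describes these letters only.

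The second comparison, ES IP against JL IP, set the same fraction of the same line by a pair of investigators side by side. Of the 30 members 11 (36.7%) stood higher in ES IPs, 11 (36.7%) lower and 8 did not pass; of 16212 genes tested, 29.7% were higher and 28.2% lower, 57.9% in all. The groups did not overlap for 24 of 30 members, and over all genes the ES IPs lay wholly above the JL IPs for 32% and wholly below for 33.9%. The median log2 fold change was 0.67 for members and 0.03 for all genes. This comparison shares the JL IPs with the first. Endothelial markers were lower in the ES IPs for 10 of 10 genes and neuron markers higher for 10 of 10, and the part of this mixture in the values of any member was not tested.

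The ligands that led the JL IPs were lower in the ES IPs. Sema3c stood at 20.5, 19.8 and 17.9 CPM in the ES IPs, below every JL IP, with a log2 fold change of -2.72 ± 0.16 (adjusted p = 7.29e-07). Sema7a stood at 125, 119 and 110 CPM (-1.27 ± 0.17) and Sema6a at 39.8, 54.3 and 53.0 (-1.66 ± 0.18). Sema3g had 85, 75 and 44 counts in the ES IPs, a log2 fold change of -2.45 ± 0.35, Sema3d fell by 1.92 ± 0.30 on that scale and Sema3b, at 17, 8 and 14 counts, by 3.38 ± 0.57. Plxnd1 stood at 24.1, 35.2 and 29.9 CPM (-1.62 ± 0.20, adjusted p = 3.79e-05). Sema4c fell by 1.21 ± 0.35. Plxnb2 (-0.60 ± 0.20, adjusted p = 0.0224) and Sema3f (-0.81 ± 0.32, adjusted p = 0.0470) were lower too, but the call of Plxnb2 ended without ES replicate 2 or 3 or JL IP replicate 3 (adjusted p from 0.0566 to 0.0734), and that of Sema3f ended without any 1 of the 6 libraries (adjusted p from 0.0548 to 0.179).

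The members higher in the ES IPs were led by Sema4f at 33.2, 42.3 and 46.2 CPM (1.95 ± 0.21, adjusted p = 1.37e-05), Sema4a (1.80 ± 0.32) and Sema3a at 23.5, 28.8 and 28.0 CPM (1.67 ± 0.25). Sema4g (1.38 ± 0.35), Plxna4 (1.31 ± 0.22), Plxnc1 (1.10 ± 0.24), Sema5a (0.98 ± 0.26) and Sema4d (0.91 ± 0.26) followed. Sema3e was higher by 1.24 ± 0.40 (adjusted p = 0.0202), and its call ended without ES replicate 2 (adjusted p = 0.0839). The calls of Plxnb3 (0.99 ± 0.36, adjusted p = 0.0366) and Sema6b (0.48 ± 0.17, adjusted p = 0.0312) also ended on leaving out 1 library: for Plxnb3 any ES IP or JL IP replicate 1 or 2 (adjusted p from 0.0550 to 0.115), for Sema6b ES replicate 2 or 3 or JL IP replicate 1 or 2 (adjusted p from 0.0631 to 0.110).

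Plxna2 (-0.02 ± 0.19, adjusted p = 0.925) and Sema6d (0.12 ± 0.17, adjusted p = 0.570) were nearest to 0 in this comparison, and neither passed. Plxna1, Plxnb1, Plxna3, Sema4b, Sema5b and Sema6c did not pass either, with log2 fold changes from 0.31 to 1.06. Without JL IP replicate 3, Plxna3 was higher by 1.78 (adjusted p = 0.00527), Sema4b by 1.80 (adjusted p = 0.00796), Plxnb1 by 1.33 (adjusted p = 0.0114) and Sema5b by 1.33 (adjusted p = 0.0351), and without ES replicate 1 Plxna1 was higher by 0.50 (adjusted p = 0.0117) and Plxnb1 by 1.08 (adjusted p = 0.0384).

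The third comparison, ES IP against JL input, shares a group with each of the others, and fraction, investigator and lane cannot be told apart in it. The sex make-up of the libraries differed in it as well. Of the 30 members 3 were higher in the ES IPs (10%), 14 were lower (46.7%) and 13 did not pass, where 26.9% of 17477 genes were higher and 25.3% lower, 52.2% in all. The groups did not overlap for 25 of 30 members, and over all genes the ES IPs lay wholly above the inputs for 32% and wholly below for 32.2%. Sema3g (5.17 ± 0.72, adjusted p = 0.000683), Sema7a (0.82 ± 0.11, adjusted p = 0.000447) and Sema3c (0.54 ± 0.12, adjusted p = 0.00609) were the higher members. Sema3g rested on the same 6 input counts, and its fold change was 6.90 without input replicate 2. All 10 endothelial markers were higher here too.

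Other members that were high in the JL IPs were not so in the ES IPs. Plxnd1 averaged 29.7 ± 5.52 CPM in ES IPs and 29.6 ± 1.40 in inputs (0.01 ± 0.15, adjusted p = 0.975), Sema3d at 4.07 ± 1.67 against 4.70 ± 0.353 (-0.21 ± 0.28, adjusted p = 0.548, and lower by -0.55 without ES replicate 1, adjusted p = 0.0381) and Sema4c at 2.43 ± 0.212 against 3.06 ± 0.066 (-0.33 ± 0.18, adjusted p = 0.155). Sema3b was lower in the ES IPs than in the inputs (-1.73 ± 0.42, adjusted p = 0.00853). Sema6a was lower as well, at 49.0 ± 8.02 against 65.4 ± 1.68 CPM (-0.42 ± 0.14, adjusted p = 0.0378), but not without any 1 of the inputs (adjusted p from 0.0851 to 0.116).

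Of the members lower in the ES IPs than in the inputs, Sema3b (-1.73 ± 0.42), Sema3e (-1.60 ± 0.17), Plxnb3 (-1.49 ± 0.18), Sema5a (-1.48 ± 0.24), Plxnc1 (-1.13 ± 0.17) and Sema4d (-1.02 ± 0.13) fell by over 2-fold. Sema6d fell by 0.82 ± 0.14 on the log2 scale, Plxna3 by 0.86 ± 0.20, Sema5b by 0.73 ± 0.19, Plxnb1 by 0.68 ± 0.23, Sema4g by 0.66 ± 0.20, Plxna1 by 0.64 ± 0.17 and Plxnb2 by 0.42 ± 0.13. Several of these calls ended without 1 library: Plxnb1 without ES replicate 2 or any input (adjusted p from 0.0606 to 0.106), Plxnb2 without any input (0.0567 to 0.0916), Sema4g without ES replicate 2 or input replicate 2 or 3 (0.0510 to 0.0838), Sema5b without ES replicate 2 or input replicate 2 (0.0510 to 0.0515) and Plxna1 without input replicate 3 (0.0501). Sema4f, Sema3a and Plxna4, which were 4.47-, 3.59- and 2.80-fold lower in the JL IPs than in the inputs, did not pass in the ES IPs (-0.30 ± 0.14, -0.26 ± 0.12 and -0.26 ± 0.20). Plxna4 stood at 89.0 CPM in ES replicate 1 and at 144 and 151 in the others, against 148 to 156 in the inputs. Over all genes, ES replicate 1 correlated less with the other ES IPs (0.973 and 0.970) than these did with each other (0.992). Sema4f was called lower without ES replicate 3 (-0.39, adjusted p = 0.0494), and Sema4a (-0.42 ± 0.16, adjusted p = 0.0565) without ES replicate 2 (-0.57, adjusted p = 0.0170). The count of lower members dropped from 14 to 9 without input replicate 2 and to 9 without input replicate 3.

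Plxna4os1 had 139, 256 and 104 counts in the JL IPs but 34, 28 and 12 in inputs and 26, 1 and 16 in the ES IPs. It was higher in the JL IPs than in the inputs (3.39 ± 0.47, adjusted p = 0.000188) and lower in the ES than in the JL IPs (-3.89 ± 0.75, adjusted p = 0.00103, and -4.66 without ES replicate 1), while Plxna4 went the other way in both. Its exons (chromosome 6, 32511073 to 32515576) share no base with exons of Plxna4 and lie within that gene on the opposite strand. How the counting treated strand is not given in the sources used. Without it, reads of unspliced Plxna4 RNA cannot be told there from those of Plxna4os1.

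Of 48 other genes of semaphorin signalling, 22 of the 47 tested were higher (46.8%) and 18 lower (38.3%) in the JL IPs than in the inputs, beside 36.7% and 37.4% of all genes; 7 did not pass and Timd2, a receptor of Sema4a, had too few counts to be tested. The median of the tested genes was 0.08. All 4 listed proteases, known to cut semaphorins or their receptors, rose: Furin, which processes class 3 ligands, by 2.60 ± 0.15, Adam17 by 2.62 ± 0.11, Mmp14 by 1.35 ± 0.27 and Adam10 by 0.95 ± 0.09. Of 9 kinases and cytoskeletal mediators of growth cone collapse 7 were lower and 1 higher, beside 37.4% and 36.7% of all genes, with Crmp1 at -2.26 ± 0.07.

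Both neuropilins were higher. Nrp1, co-receptor of Sema3a, stood at 101, 106 and 98.2 CPM in the JL IPs against 26.5, 25.6 and 23.4 (2.02 ± 0.08), and Nrp2, co-receptor of Sema3f and Sema3g, at 107, 153 and 89.9 against 47.5, 53.9 and 53.4 (1.18 ± 0.18). Of the other co-receptors Kdr, the main VEGF receptor of endothelium, which also associates with Plxna1, rose most, from 1.63 to 114 CPM (6.12 ± 0.18). The adhesion molecules Nrcam (-3.08 ± 0.23), Chl1 (-2.78 ± 0.14) and L1cam (-2.66 ± 0.25), which partner neuropilins on axons, fell most.

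Of 22 proteins that plexins act through, 11 were higher and 6 lower, beside 36.7% and 37.4% of all genes. Rras, the GTPase that plexins switch off, rose from 6.37 to 372 CPM (5.87 ± 0.11), and Fes, a kinase of plexin A1, from 0.309 to 13.4 (5.42 ± 0.31). Rhod (4.51 ± 0.24) and Rnd1 (1.38 ± 0.21), which bind the cytoplasmic part of plexins, were higher, whereas Rnd2 (-1.82 ± 0.20) and Rnd3 (-0.81 ± 0.12) were lower. The actin-oxidising Mical enzymes parted, with Mical1 higher (2.43 ± 0.25) and Mical2 (-1.58 ± 0.13) and Mical3 (-0.78 ± 0.12) lower.

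**Figure D4:**
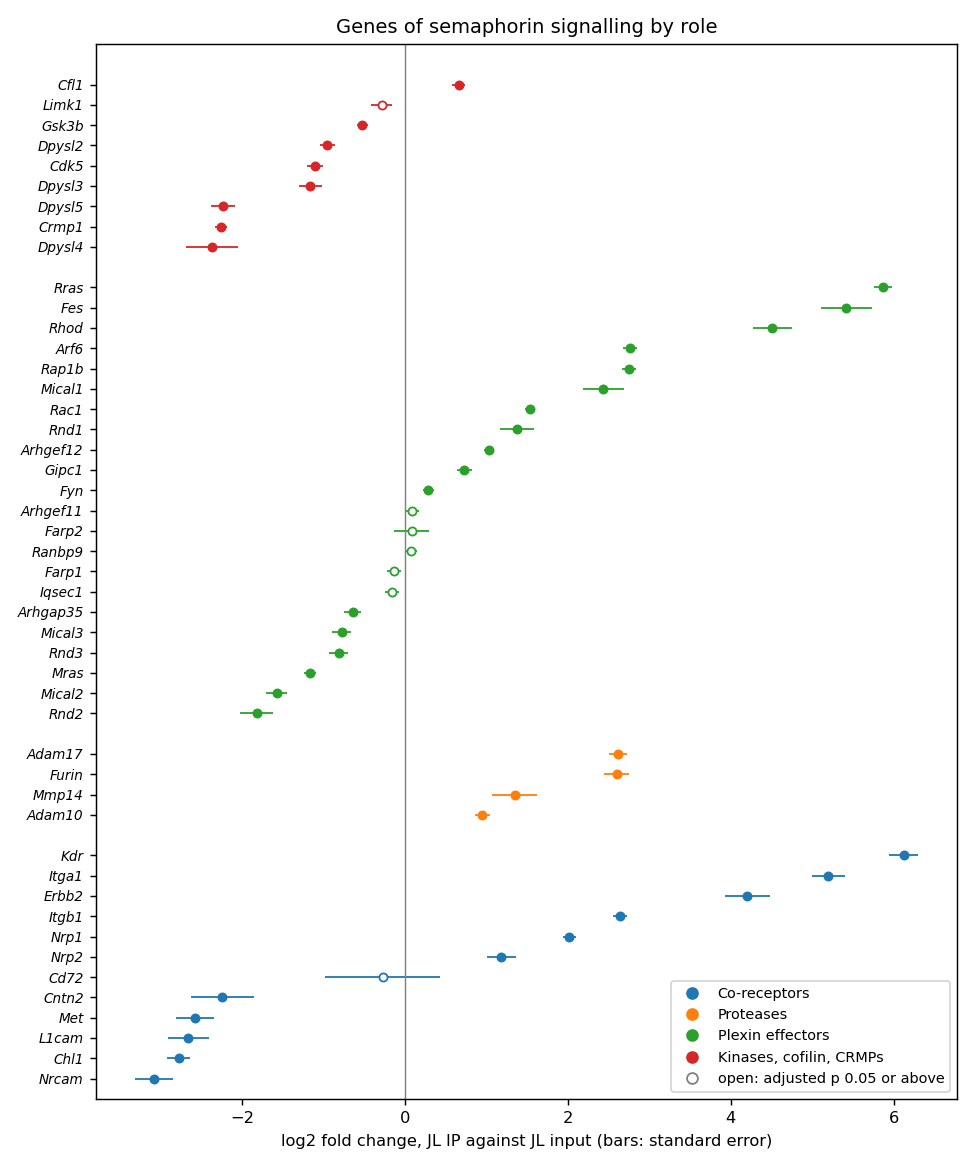
Log2 fold change, JL IP against JL input, with standard error, for 47 tested genes of semaphorin signalling grouped by role; open symbols did not pass. All 4 proteases lie right of 0, and the called co-receptors fall into a high set with Kdr at 6.12 and a low set with Nrcam at -3.08. The co-receptor Cd72, at -0.27, did not pass.

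Between the ES and JL IPs 19 of these genes stood higher in ES IPs and 19 lower (40.4% each of those tested), beside 29.7% and 28.2% of all genes. Of those that reached 5 CPM in one of the groups and did not overlap, Itga1, an integrin chain that pairs with beta-1 (-3.48 ± 0.20), Kdr (-3.42 ± 0.21) and Nrp1 (-2.76 ± 0.17) fell most, and Crmp1 (3.26 ± 0.18), Dpysl4 (2.88 ± 0.33) and Mical2 (2.46 ± 0.24) rose most. Nrp2 was lower by -1.50 ± 0.21. Against the inputs, 17 stood higher in ES IPs (36.2%) and 9 lower (19.1%), beside 26.9% and 25.3% of all genes. Of those that reached 5 CPM in one group and did not overlap, Rras (3.59 ± 0.23), Kdr (2.63 ± 0.22) and Itga1 (1.63 ± 0.23) led, and L1cam (-1.02 ± 0.13), Nrcam (-0.97 ± 0.14) and Nrp1 (-0.82 ± 0.12) were lowest. Nrp1, at 14.2 CPM in the ES IPs, and Nrp2 (-0.40 ± 0.12, adjusted p = 0.0212) were thus below the inputs there and above them in the JL IPs.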

How the data were processed

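The submitters' processing notes name STAR 2.0.0e, mm10 and HTSeq. Annotation, strand setting and filters were not given in the sources used here. The deposited values are raw counts per gene, 1 file per library, 9 libraries in 3 groups of 3. HTSeq's special rows and the row "unknown" (at most 9.20e-06% of gene counts) were left out. Ambiguous reads made up 10.3 to 11.3% of assigned, ambiguous and featureless reads in the inputs and 2.04 to 2.54% in the IPs, which can lower input counts of genes that overlap others. Exons of 6 members overlap another gene in GENCODE M21, over 10.7% of bases in Plxna1, 7.27% in Sema4c and at most 2.68% in the rest. Replicate counts differed by more than sampling noise (chi-square per degree of freedom from 7.00 to 217), so each library counted once.

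The quasi-likelihood test (glmQLFit, glmQLFTest) of edgeR 4.0.16, under R 4.3.3, followed filterByExpr and TMM scaling, with Benjamini-Hochberg adjustment over all genes tested and only the compared groups in each fit. Standard errors were obtained as |log2 fold change|/√F. CPM use TMM factors over all 9 libraries, and per-kilobase levels use GENCODE M21 exon lengths, which may not be those of the counting. Alternatives were RLE factors, library size alone, no filter, DESeq2 1.42.0, all 9 libraries in 1 fit, a replicate block and each replicate left out. All members were named. Of the 48 pathway genes Nrp1, Nrp2 and, per comparison, the 3 largest called changes each way (at least 5 CPM in the higher group, no overlap) were named by rule; others were chosen after their values were seen. The members and lists were chosen with earlier results of these data known.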

Additional observations from a re-analysis of the deposited data

How the results depend on the processing

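No member changed sign across the threshold under any alternative in the 3 comparisons. All alternatives kept the call of 24 of 27 members for JL IP against input (Sema4c, Sema6b and Plxna2 lost it in at least 1), 17 of 22 in the comparison of both IP groups and 10 of 17 for ES IP against input. Leaving out 1 library moved the count of lower members in ES IP against input between 9 and 15, from 14; the other counts of members and of pathway genes stayed within 1.5 times. Scaling by library size alone moved the median log2 fold change of all genes from -0.09 to -0.35 for JL IP against input and from 0.00 to -0.11 for ES IP against input; the members then split 8 higher and 18 lower, and 3 and 19. DESeq2 called 14 members higher in ES against JL IP, where edgeR called 11.

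The labels do not say what a replicate number marks. Deviations from the group mean correlated at 0.186, 0.0908 and 0.131 between same-numbered JL IPs and inputs. Every JL sample correlated best with its own number, and same-numbered JL libraries also shared a lane number and the presence or near absence of Ddx3y, so a pairing there is possible. Because 1 of the 3 correlations was under 0.1 the numbers were not used as pairs. Between ES and JL IPs the correlations were 0.124, -0.0571 and 0.0648. With a replicate block the members split 9 higher and 18 lower for JL IP against input, 12 and 10 for ES against JL IP, and 3 and 13 for ES IP against input. The block changed the calls of Sema4b and Sema6b for JL IP against input. Depth limits Sema3g in the inputs, at 6 counts, and Sema3b and Plxna4os1 in the ES IPs.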

Other observations

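The mean level in the ES IPs lay between the means of the JL IPs and the inputs for 21 of 30 members (70%), and for 53.5% of 17801 genes that passed the filter over all 9 libraries. Sema3b, Sema3d, Sema3f, Sema4c, Sema6a, Plxna2, Plxnb2 and Plxna4os1 were lowest in the ES IPs of the 3 groups, and Sema6b was highest there. These positions are descriptions and were not tested.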
